A study of Homo sapiens with 3 samples.

Results

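Matrix metalloproteinases, ADAM sheddases and their tissue inhibitors (TIMPs) were followed across 3 expression arrays of MDA-MB-231, an established human breast cancer line that is triple-negative and of mesenchymal character. Of the 10 genes listed (MMP1, MMP2, MMP3, MMP14, TIMP1, TIMP2, TIMP3, ADAM9, ADAM10 and ADAM17), 9 had a probe set paired with exactly 1 gene symbol in the platform annotation, out of 33616 genes with such a value. The probe set that holds TIMP2 is paired with 2 symbols, CEP295NL and TIMP2, so TIMP2 has no value of its own here. Each of the 9 genes had 1 probe set. All cells were transfected for 48 hours: 1 array held RNA after control siRNA (siControl), 1 after siTMPO-AS1 #1 and 1 after siTMPO-AS1 #2, both siRNAs directed at the long non-coding RNA TMPO-AS1. No allele or other agent is named for any group, and the labels do not state if separate cultures were used.

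Matrix metalloproteinases are zinc-dependent enzymes that cut collagen and other matrix proteins. They are made as inactive precursors, and are either secreted or, like MMP14, held in the plasma membrane. ADAM sheddases are membrane-anchored relatives that cut growth factors, cytokines, adhesion molecules and Notch receptors from the cell surface. TIMPs bind the active site of metalloproteinases and block it. TIMP2 also bridges MMP14 and the precursor of MMP2, through which MMP14 activates MMP2.

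Values are log2 signals made by the authors with RMA, 1 per probe set and array. A log2 ratio subtracts the control array's signal from an siRNA array's, so each ratio rests on 1 array against 1, with no replicate. Levels of different probe sets were not set against each other. Genes counted as tested had a mean log2 signal over the 3 arrays of at least 4.42, the median of all genes, which kept 16808 genes and 7 of the 9 members. The size rule was a difference of at least 1.5-fold. The targeted RNA, TMPO-AS1, had log2 signals of 4.83 with siControl, 4.37 with siTMPO-AS1 #1 and 4.28 with siTMPO-AS1 #2. It was below the control on both siRNA arrays by less than 1.5-fold (1.38-fold and 1.46-fold), both siRNA signals lay under the filter, and limma gave an adjusted p of 1.00. The neighbouring gene TMPO was 1.85-fold and 1.43-fold below the control.

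MMP14 was the one member past 1.5-fold on both siRNA arrays, and it was lower on both. With siTMPO-AS1 #1, the ADAM10, ADAM9 and MMP1 signals were also lower and that of TIMP3 was higher. With siTMPO-AS1 #2, those 4 genes lay within 1.5-fold of the control. TIMP1 and ADAM17 lay within 1.5-fold of the control on both arrays, and MMP2 and MMP3 were too dim to be tested. RNA of whole cultures was measured, so fewer cells of a kind and less RNA per cell cannot be told apart.

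The promoter windows of MMP14, ADAM10 and TIMP3 are shown because these members had, respectively, the lower signal on both siRNA arrays, a lower signal with siTMPO-AS1 #1 alone, and a higher signal with siTMPO-AS1 #1 alone. Each runs from 250 bases before the gene's annotated start to 50 bases after it, read 5′ to 3′ on the gene's strand (RefSeq, GRCh38.p14). The MMP14 window is chr14:22836335-22836634 on the plus strand, the ADAM10 window chr15:58749658-58749957 on the minus strand, and the TIMP3 window chr22:32801455-32801754 on the plus strand. Capitals mark GGGCGG or its complement CCGCCC, the core of the GC box that SP1-type factors bind.
MMP14: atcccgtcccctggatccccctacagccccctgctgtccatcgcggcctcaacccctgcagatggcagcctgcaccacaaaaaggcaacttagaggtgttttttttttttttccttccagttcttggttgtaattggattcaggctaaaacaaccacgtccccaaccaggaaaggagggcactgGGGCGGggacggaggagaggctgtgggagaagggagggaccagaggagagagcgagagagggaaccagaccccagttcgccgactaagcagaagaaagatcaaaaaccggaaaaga
ADAM10: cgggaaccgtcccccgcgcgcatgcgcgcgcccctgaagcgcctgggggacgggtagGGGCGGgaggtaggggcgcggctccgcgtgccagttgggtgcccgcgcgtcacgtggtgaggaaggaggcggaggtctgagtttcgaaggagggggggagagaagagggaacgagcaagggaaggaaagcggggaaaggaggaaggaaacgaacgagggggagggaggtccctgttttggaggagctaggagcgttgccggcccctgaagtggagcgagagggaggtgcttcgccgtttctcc
TIMP3: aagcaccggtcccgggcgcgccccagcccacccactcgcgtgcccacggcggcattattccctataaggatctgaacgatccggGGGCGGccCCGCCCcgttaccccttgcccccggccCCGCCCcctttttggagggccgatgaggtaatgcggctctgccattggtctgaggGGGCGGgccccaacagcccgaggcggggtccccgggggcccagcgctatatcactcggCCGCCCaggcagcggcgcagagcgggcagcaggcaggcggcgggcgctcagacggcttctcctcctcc

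The MMP14 window held 1 GC box, whose first base lay 66 bases before the start. The ADAM10 window also held 1, at 193 bases, and the TIMP3 window held 5, at 166, 158, 131, 76 and 18 bases. RefSeq windows of 5 members were used. The selection of windows left out ADAM9 in advance, and the set used held no window for MMP1, MMP2, MMP3 or TIMP2. The counts that follow do not cover these members, so the motifs of their promoters were not examined. All 5 (TIMP1 and ADAM17 are the others) held a GC box on either strand, which 45.0% of all 35116 windows in the table did. None of the 5 held the AP-1 motif TGANTCA, found in 7.71% of all windows, or TATAAA on either strand, found in 11.5%. GC content was 55.0% for MMP14, 68.0% for ADAM10 and 72.7% for TIMP3, against a median of 58.7% over all windows. A match is a description of letters and not of a bound site, and no arrays here measured binding.

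**Figure D1:**
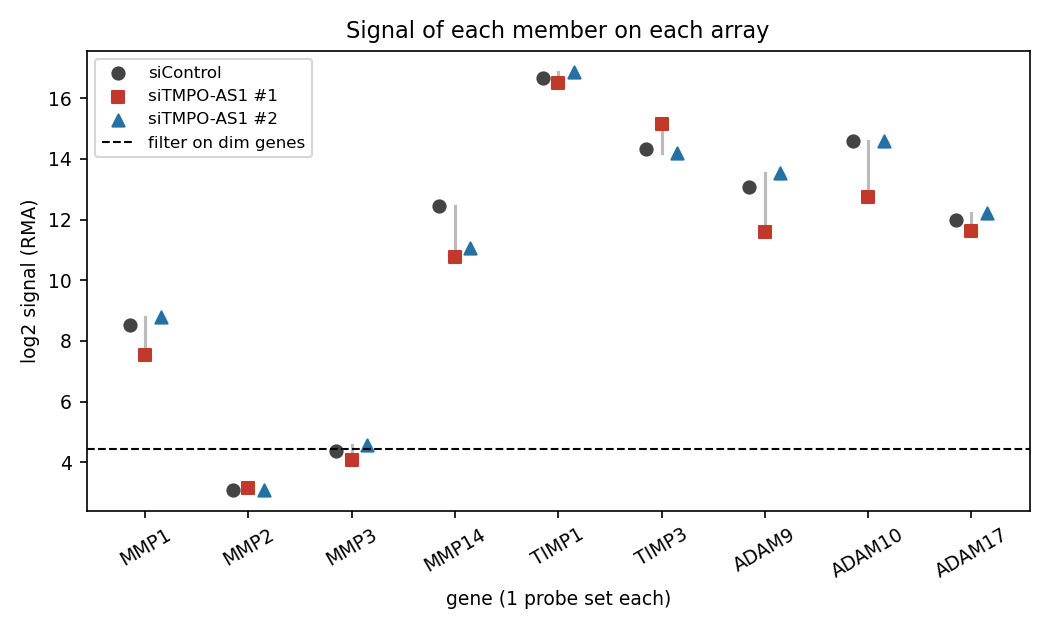
Log2 RMA signal (vertical axis) of the 9 members (horizontal axis) on the siControl array (circles), the siTMPO-AS1 #1 array (squares) and the siTMPO-AS1 #2 array (triangles), 1 array each. Grey lines span the 3 values, and the dashed line is the filter at 4.42. MMP14 is lower on both siRNA arrays, ADAM9 and ADAM10 on the siTMPO-AS1 #1 array, and MMP2 lies below the filter on every array.

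Among the metalloproteinases, MMP14 (MT1-MMP), the membrane-bound collagenase, had log2 signals of 12.44 with siControl, 10.75 with siTMPO-AS1 #1 and 11.08 with siTMPO-AS1 #2. Both siRNA arrays were below the control, by 3.23-fold and 2.58-fold (log2 ratios -1.69 and -1.37). Of the 16808 genes tested, 59 (0.351%), MMP14 itself among them, had log2 ratios as low as those of MMP14 or lower on both arrays. Both ratios share the control array. MMP1, the secreted interstitial collagenase, had log2 signals of 8.51 with siControl, 7.52 with siTMPO-AS1 #1 and 8.79 with siTMPO-AS1 #2. The siTMPO-AS1 #1 array thus stood 1.98-fold below the control and the siTMPO-AS1 #2 array 1.21-fold above it (log2 ratios -0.99 and 0.28).

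MMP2 (gelatinase A), the secreted enzyme whose precursor MMP14 activates, had log2 signals of 3.09, 3.14 and 3.10 with siControl, siTMPO-AS1 #1 and siTMPO-AS1 #2. These lie in the dim range of the arrays, under the filter by 1.31 on average, and the signals differed by less than 0.05. MMP3 (stromelysin-1), which cuts matrix proteins and the precursors of other metalloproteinases, had log2 signals of 4.37, 4.08 and 4.58 in the same order. Its mean of 4.34 fell just short of the filter, and the siTMPO-AS1 arrays lay on either side of the control. Neither gene was tested, and nothing is read from their differences.

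Among the sheddases, ADAM10, which cuts Notch receptors and cadherins, had log2 signals of 14.59 with siControl, 12.73 with siTMPO-AS1 #1 and 14.58 with siTMPO-AS1 #2. The siTMPO-AS1 #1 array stood 3.63-fold below the control (log2 ratio -1.86), whereas the siTMPO-AS1 #2 array was at the control's level (-0.01). ADAM9, a membrane-anchored ADAM protease, showed a like division, with log2 signals of 13.09, 11.59 and 13.53 with siControl, siTMPO-AS1 #1 and siTMPO-AS1 #2. That is 2.82-fold below the control with siTMPO-AS1 #1 and 1.36-fold above it with siTMPO-AS1 #2 (log2 ratios -1.50 and 0.44). The siRNA arrays differed from each other by 1.94 for ADAM9 and 1.85 for ADAM10 on the log2 scale, a difference that 4.37% and 4.97% of the genes tested reached or passed.

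ADAM17 (TACE), which releases TNF and ligands of the EGF receptor, had log2 signals of 12.00 with siControl, 11.62 with siTMPO-AS1 #1 and 12.21 with siTMPO-AS1 #2. Its log2 ratios of -0.38 and 0.21 were within 1.5-fold of the control, and 37.1% of the genes tested differed as much or more between the siRNA arrays. All 3 sheddases were thus below the control on the siTMPO-AS1 #1 array, as were 48.1% of all genes tested, and 2 of them were past 1.5-fold, as were 18.8% of all genes. On the siTMPO-AS1 #2 array 0 were past it, where 10.4% of all genes tested were lower and 16.1% higher. With 3 genes, these counts cannot be set apart from the shares of all genes.

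Among the inhibitors, TIMP3, which stays bound to the matrix and inhibits ADAM17 besides metalloproteinases, had log2 signals of 14.32 with siControl, 15.14 with siTMPO-AS1 #1 and 14.19 with siTMPO-AS1 #2. It stood 1.77-fold above the control with siTMPO-AS1 #1 and 1.09-fold below it with siTMPO-AS1 #2 (log2 ratios 0.82 and -0.13). TIMP1, a secreted inhibitor that acts poorly on membrane-bound metalloproteinases, had log2 signals of 16.67, 16.50 and 16.88 in the same order. The larger of its log2 ratios, -0.17 and 0.21, was smaller in size than that of any other member tested. TIMP1 signals exceeded 16, the log2 of the brightest value that a 16-bit scan records, as did those of 1144 probe sets on all 3 arrays, so a further transformation of the deposited signal is possible and its folds are those of the deposited scale.

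Counted against all genes, 4 of the 7 members tested were at least 1.5-fold lower with siTMPO-AS1 #1, where 18.8% of all genes tested were, and 1 was higher (16.6% of all genes). With siTMPO-AS1 #2, 1 was lower (10.4% of all genes) and 0 were higher (16.1% of all genes). On both arrays 1 member, MMP14, was lower (4.07% of all genes) and 0 were higher (5.42% of all genes). Over the 7 members the log2 ratios had medians of -0.99 and 0.21 (siTMPO-AS1 #1 and #2), against 0.02 and 0.09 over all genes tested. The ratios share the control array, and 7 genes are too few to set a share apart from that of all genes.

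**Figure D2:**
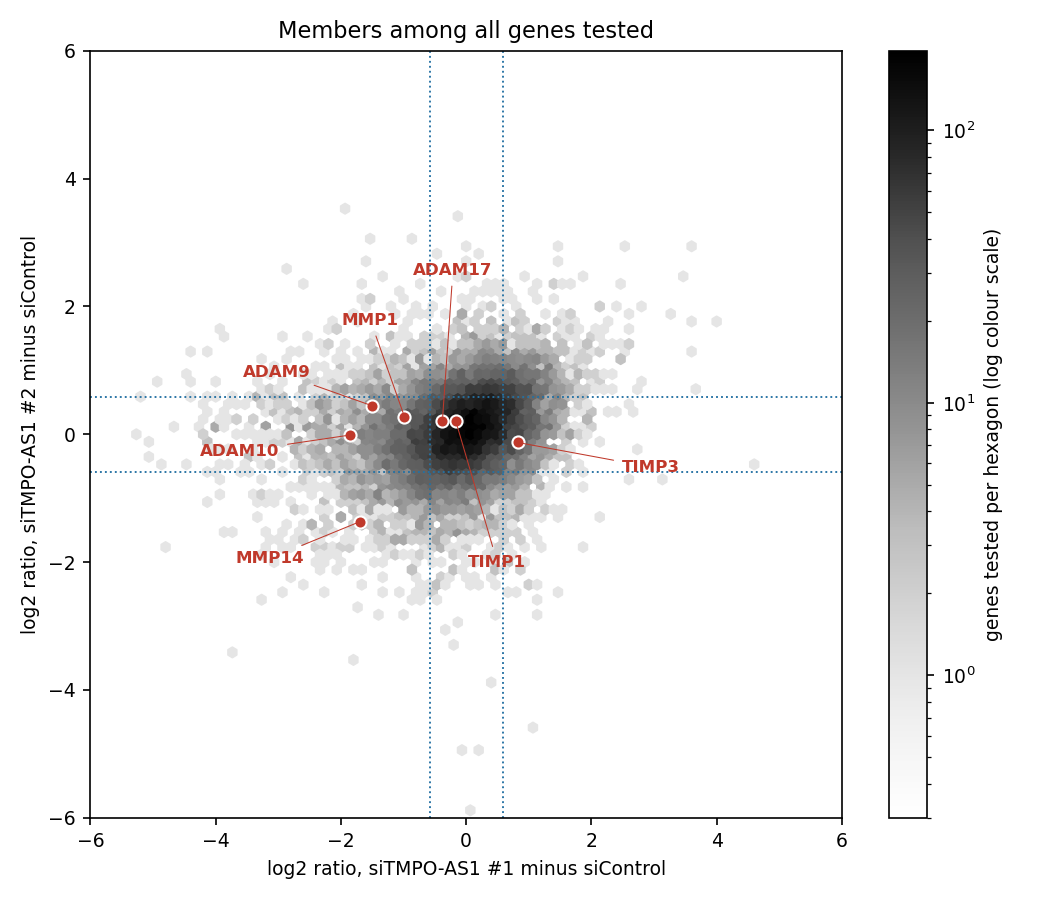
Log2 ratio with siTMPO-AS1 #1 (horizontal axis) against that with siTMPO-AS1 #2 (vertical axis), both relative to the same siControl array, for the 7 members tested (red points) over all 16808 genes tested (grey hexagons, darker for more genes on a log colour scale). Dotted lines mark 1.5-fold. MMP14 alone among the members lies in the lower left corner past both lines (-1.69 and -1.37), and ADAM10, ADAM9 and MMP1 lie past the left line only.

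Both siRNA arrays were also compared together with the control array in limma, over all 16808 genes. For MMP14 the mean log2 ratio was -1.53 with an SE of 0.46 (95% interval -2.77 to -0.29, lower on 2 of 2 arrays), with an unadjusted limma p of 0.0258 and a limma adjusted p of 1.00. ADAM10 had a mean of -0.94 (SE 0.89), ADAM9 of -0.53 (SE 0.92) and MMP1 of -0.35 (SE 0.69), each close to or smaller than its own SE. TIMP3 had 0.35 (SE 0.59), ADAM17 -0.08 (SE 0.50) and TIMP1 0.02 (SE 0.46). limma called 0% of all genes and 0 members at an adjusted p of 0.05, while 261 genes, MMP14 among them and no other member, had an unadjusted p under 0.05. Those 261 are fewer than such a threshold would pass by chance among 16808 genes. The fit had 1 residual degree of freedom. A gene's own spread was the difference between 2 different siRNAs, and limma drew it toward a spread pooled over all genes. The pooled SD was 0.41 and counted as 3.28 degrees of freedom, so each SE mixes both. The spread of the single control array was taken to equal that of the siRNA arrays. A missed threshold in this design does not show that a gene was the same.

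Other genes of the pathway were described from 10 lists of 147 genes, of which 135 had a value and 72 were tested. Of the 72, 22 (30.6%) were at least 1.5-fold lower with siTMPO-AS1 #1 and 6 (8.33%) higher, against 18.8% and 16.6% of all genes tested. With siTMPO-AS1 #2, 9 (12.5%) were lower and 16 (22.2%) higher, against 10.4% and 16.1% of all genes. On both arrays 2 (2.78%) were lower and 1 (1.39%) was higher, where 4.07% and 5.42% of all genes were. Opposite directions past 1.5-fold were taken by 6 (8.33%), against 3.30% of all genes. Their median log2 ratios were -0.24 and 0.22, against 0.02 and 0.09.

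Further enzymes of these families were mostly dim. Of 18 other matrix metalloproteinases with a value, 2 were tested, and MMP7 and MMP9 lay below 4.42 on every array (control signals 2.70 and 3.20). MMP16, a further membrane-type enzyme, had log2 ratios of 0.13 and 0.68. Of 13 other ADAM genes 6 were tested, with medians of -0.35 and 0.03. ADAM19, a membrane-anchored protease, went opposite ways, with log2 signals of 6.54, 5.60 and 7.69 (log2 ratios -0.94 and 1.15). Of 18 ADAMTS genes, which encode secreted relatives, 8 were tested. ADAMTS6 was higher on both siRNA arrays (8.41 with siControl, 9.51 and 9.55 with siTMPO-AS1 #1 and #2, log2 ratios 1.11 and 1.14). ADAMTS15, which cuts the proteoglycan aggrecan, was lower on both (5.51 with siControl, 4.65 and 4.53, log2 ratios -0.86 and -0.98).

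Among 6 tested inhibitors outside the members, 0 passed 1.5-fold the same way on both arrays, against 4.07% lower and 5.42% higher among all genes. The membrane-anchored inhibitor RECK, which restrains MMP14, had log2 ratios of 0.30 and 0.69. TIMP4 had -0.74 and -0.24, and the secreted protease inhibitor TFPI2 had -1.73 and 0.36. The plasmin system, which cuts some metalloproteinase precursors, had medians of -0.09 and 0.24 over 10 genes. PLAU, the urokinase that makes plasmin, had log2 signals of 14.07 with siControl, 11.83 with siTMPO-AS1 #1 and 15.08 with siTMPO-AS1 #2. It thus went opposite ways (log2 ratios -2.24 and 1.01), and its receptor gene PLAUR had -1.64 and -0.39. FURIN, the convertase that removes the propeptide of MMP14 and of ADAM proteases, had -0.15 and 0.32, within 1.5-fold on both arrays. RECK, TIMP4, TFPI2, PLAUR and FURIN, and the genes MMP7, MMP9, MMP16, ITGAV, BSG, RHBDF2, MICB and all tetraspanins named below, were chosen after their values were seen.

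Surface partners of metalloproteinases had medians of -0.28 and 0.02 over 8 genes. CLDN1, a tight junction claudin, had log2 signals of 6.02 with siControl, 4.12 with siTMPO-AS1 #1 and 9.56 with siTMPO-AS1 #2 (log2 ratios -1.90 and 3.54). ITGAV, the integrin alpha-v subunit, had -3.45 and 0.15. BSG (CD147, or EMMPRIN), a surface protein known for inducing metalloproteinases, had 0.43 and -0.14.

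Genes that mature or carry the sheddases had medians of -0.28 and 0.09 (9 genes), with 0 past 1.5-fold the same way on both arrays, where few of so short a list would be at the share of all genes (4.07% lower, 5.42% higher). RHBDF2, the iRhom that escorts ADAM17 to the surface, had log2 ratios of -0.40 and 0.21. Of the listed tetraspanins, which carry ADAM10, TSPAN5 (0.63 and 0.31) and TSPAN14 (0.41 and -1.27) were above the control with siTMPO-AS1 #1. TSPAN15 (-0.45 and 0.09) and TSPAN17 (-0.28 and -0.003) were below it. With siTMPO-AS1 #2, TSPAN14 alone of these was past 1.5-fold. TSPAN10 and TSPAN33 were too dim to be tested.

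Of the sheddase substrates, 3 EGF receptor ligands were tested. HBEGF had log2 signals of 11.60 with siControl, 9.90 with siTMPO-AS1 #1 and 12.73 with siTMPO-AS1 #2. It was lower with one siRNA and higher with the other (log2 ratios -1.70 and 1.13). EREG was lower with both, with 7.88 against 5.97 and 7.15 (log2 ratios -1.91 and -0.73). Over 16 receptors and adhesion molecules that sheddases cut, the medians were -0.27 and 0.30. The adhesion molecule ICAM1 had -0.91 and 1.28, and MICB, a ligand of the NK cell receptor NKG2D, had -1.94 and 0.26. Over 5 matrix substrate genes the medians were 0.01 and 0.47, and TNC, the matrix glycoprotein tenascin C, went opposite ways (0.89 and -1.26).

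**Figure D3:**
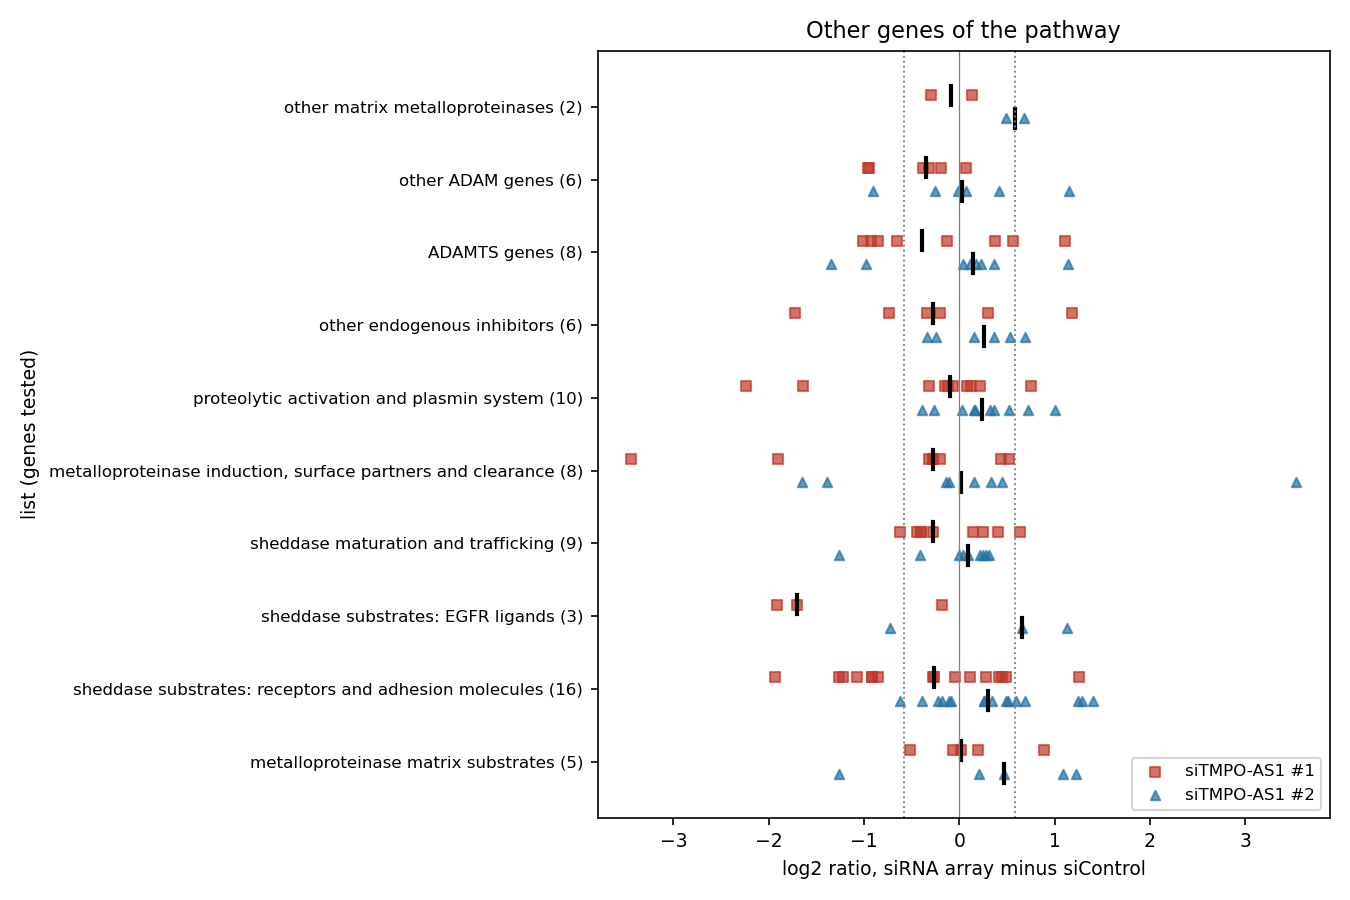
Log2 ratios (horizontal axis) of the tested genes of 10 pathway lists (vertical axis, with the number tested) for siTMPO-AS1 #1 (squares) and siTMPO-AS1 #2 (triangles), each gene 1 point per siRNA, with black bars at the medians and dotted lines at 1.5-fold. The EGF receptor ligands have the widest gap between medians (-1.70 and 0.65), and CLDN1 is the point at 3.54.

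The line was checked against markers. VIM, the mesenchymal intermediate filament, had log2 signals of 16.52, 16.28 and 16.45, and 6 of 7 genes of the mesenchymal list were tested. CD44 and EGFR, like VIM, lay within 1.5-fold of the control on both siRNA arrays. AXL had log2 ratios of -1.27 and -0.09, MSN -1.03 and 0.09, and CAV1 0.53 and -1.39. SPARC, though listed as high, lay below the filter on every array (2.96 with siControl). Of 9 luminal and epithelial genes that were listed as low in this line, 5 were tested, so the list as a whole was not dim. Its mean log2 signal was 7.41, 7.67 and 7.96 on the siControl, siTMPO-AS1 #1 and siTMPO-AS1 #2 arrays. The hormone receptor genes ESR1 (3.34) and PGR (3.55), CDH1 (3.64) and FOXA1 (4.48) were at or near the dim range with siControl. KRT8 (14.82), EPCAM (10.92), ERBB2 (7.72), GATA3 (5.25) and also KRT18 were above the filter. With siTMPO-AS1 #2 the log2 ratios of KRT8, KRT18 and EPCAM were 0.97, 0.90 and 2.30, and with siTMPO-AS1 #1 they were 0.20, -0.70 and 0.34. Fibroblasts also make these enzymes and inhibitors. Of 8 fibroblast genes with a value 4 were tested, the list's mean log2 signal was 4.85, 4.93 and 5.11 on the 3 arrays, and 1 of them, LUM, was at least 1.5-fold higher on both siRNA arrays (log2 ratios 1.13 and 0.62). The collagen genes COL1A1 (7.88 with siControl, log2 ratios 0.19 and 1.22) and COL1A2 (6.08, with 0.01 and 0.47) were above the filter, and PDGFRB (4.78) had -0.29 and -0.63. The other 4, DCN, PDGFRA, FAP and THY1, were below it on average. Immune genes had means of 5.08, 5.24 and 5.40, with 3 of 8 tested. CD68 (11.14 with siControl) had log2 ratios of 1.18 and -0.35, TYROBP -0.18 and 0.73, and CSF1R -0.52 and 0.52. Endothelial genes had means of 4.33, 4.15 and 4.37. The 2 of them tested were VWF (-0.67 and -0.20) and KDR (-0.88 and 0.27). The marker genes named were likewise chosen after their values were seen, and their part in the results was not tested.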

How the data were processed

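The deposited table holds log2 signals for 138745 probe sets on 3 arrays, which, per the submitters' processing notes, the authors made with RMA (Affymetrix Expression Console). The sources used here give no version, annotation or build. Per the labels' protocols, 150 ng of total RNA was labelled with biotin. Values were used as deposited. Array medians were 3.73, 3.75 and 3.75, and pairs of arrays shared at most 13 identical values. Gene names came from the platform annotation (36176 probe sets with 1 symbol), and the brightest stood for its gene. Arrays have no read depth, and their number limits the precision.

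Ratios were computed with Python 3.11.15 and pandas 2.3.3, and the fit over all genes with limma 3.58.1 in R 4.3.3 (lmFit, eBayes, two-sided, Benjamini-Hochberg, threshold 0.05). The code of the fit was run on simulated data with far less noise than these arrays have. That run checks the code and does not show what the fit can detect here. The p-values of the fit rest only on the spread between the arrays of the different siRNAs, a gene's own and the one pooled over all genes. That spread may be technical. Alternatives were the probe set used, scaling, the filter (none, or 6.25), a 2-fold rule, an intensity trend and leaving out each siRNA array. Named were all members and, from each pathway list, up to 3 tested genes past 1.5-fold the same way and up to 2 in opposite ways on both arrays. The members and lists were chosen with earlier results of these data known. siRNA sequences were not used here.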

Additional observations from a re-analysis of the deposited data

Results flagged for a closer look

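The probe set paired with both CEP295NL and TIMP2 is outside the members, and its signal was above the control on both siRNA arrays. Its log2 signal was 14.20 with siControl, 14.98 with siTMPO-AS1 #1 and 15.69 with siTMPO-AS1 #2, which is 1.72-fold and 2.82-fold above the control. TIMP2 encodes the inhibitor through which MMP14 and the MMP2 precursor meet. The annotation does not say which of its 2 genes the signal came from, and each siRNA had 1 array, so the difference was not tested.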

How the results depend on the processing

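Median-centring or quantile normalization moved no member's log2 ratio by more than 0.144, took 0 across 1.5-fold and changed 1 sign, that of the dim MMP2 with siTMPO-AS1 #2. No member had a second probe set, so that choice changed no member. MMP14 was counted lower on both arrays at either filter, with no filter and at 2-fold. Without the siTMPO-AS1 #2 array the members past 1.5-fold were 4 lower and 1 higher, and without the siTMPO-AS1 #1 array 1 lower and 0 higher. Counting the CEP295NL and TIMP2 probe set, an alternative chosen after seeing the data, gave 1 higher on both. For the other pathway genes, 2 lower on both arrays became 1 with the stricter filter and 0 at 2-fold, and 1 higher became 2 with no filter. Leaving out 1 siRNA array gave 9 to 22 lower and 6 to 16 higher. limma called 0 genes under every alternative run. No paired analysis was possible because the control has 1 array. With 1 array per siRNA, a difference between the siRNAs and an array's own noise cannot be told apart.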
